A study of Mus musculus with 2 samples.

Results

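Hepatocytes lying beside collagen-rich cells were compared with hepatocytes lying far from any such cell in 2 sections of mouse liver. Transcripts of 500 genes had been imaged by MERFISH, a method that identifies single RNA molecules in tissue by the order in which they light up over rounds of probe hybridisation. The labels name the organism, Mus musculus, the tissue, liver, and the replicate numbers 1 and 2 of a single group tagged 2d. They give no strain, genotype, age or treatment, and nothing in them tells if the livers of 2 animals or of 1 were cut. The p-values below therefore measure how far these sections disagree, which may be technical, and not the spread between animals. The series' design text describes mice with liver metastases under treatment, which these labels do not mention, so no treatment was assigned.

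Members were chosen by their own counts and positions. Of 111966 segmented cells, 25499 passed minimums of 10 gene counts and 50 cubic µm in volume and are called kept cells. A kept cell was taken as a hepatocyte with at least 5 counts in all of F2, Apoh, Fga, Fgb, Serpina1a, Igfbp2 and Igfbp4, which encode plasma proteins, and at most 1 count of Col1a1 and Col3a1, which encode fibrillar collagens. It was taken as a collagen cell with at least 3 counts of those collagens. This gave 13363 hepatocytes and 841 collagen cells. Hepatocytes with a collagen cell within 30 µm, centre to centre, are called near and numbered 684 in section 1 and 506 in section 2. Those with none within 100 µm are called far and numbered 2076 and 5374, and the 1911 and 2812 between these distances are called middle. The 8640 near and far cells were thus compared, of which 1190 were near. No cell ID was shared by the sections.

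The liver lobule is a plate of hepatocytes between the portal triad, where blood enters, and the central vein, where it leaves. Hepatocytes differ along this axis: periportal cells make glucose and urea, and the innermost pericentral cells make glutamine under Wnt signals from endothelial cells. Collagen is made by stellate cells, which lie between hepatocytes and the sinusoidal endothelium, and by fibroblasts around portal and central vessels. A hepatocyte beside a collagen cell can therefore lie at a sinusoid, at a portal tract or at a central vein.

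The cells carried the markers of their names that the rule had not used. Hp, Hnf4a, Cebpa and Gjb1, further hepatocyte genes, together had a level of 1042 and 1878 counts per 10000 gene counts in near hepatocytes of sections 1 and 2. The same genes reached 1084 and 1919 in far hepatocytes, 603 and 744 in collagen cells, and 315 and 646 in blood-lineage cells. Blood-lineage cells, defined below, had to hold under 5 counts of the rule genes, so their low level is partly set by that limit. Most of the sum was Hp, at 917 and 1666 in near hepatocytes, so it is mainly a reading of 1 gene. Pdgfra, Acta2 and Cald1, markers of stellate cells, fibroblasts and smooth muscle, had a summed level of 45.0 and 49.3 in collagen cells against 18.5 and 18.01 in far hepatocytes. The collagen cells were not free of hepatocyte RNA: 41.4% of them in section 1 and 14.95% in section 2 held at least 5 counts of the hepatocyte rule genes. Collagen cells lay in groups, with a median of 17.1 and 17.7 µm to the next one.

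**Figure D1:**
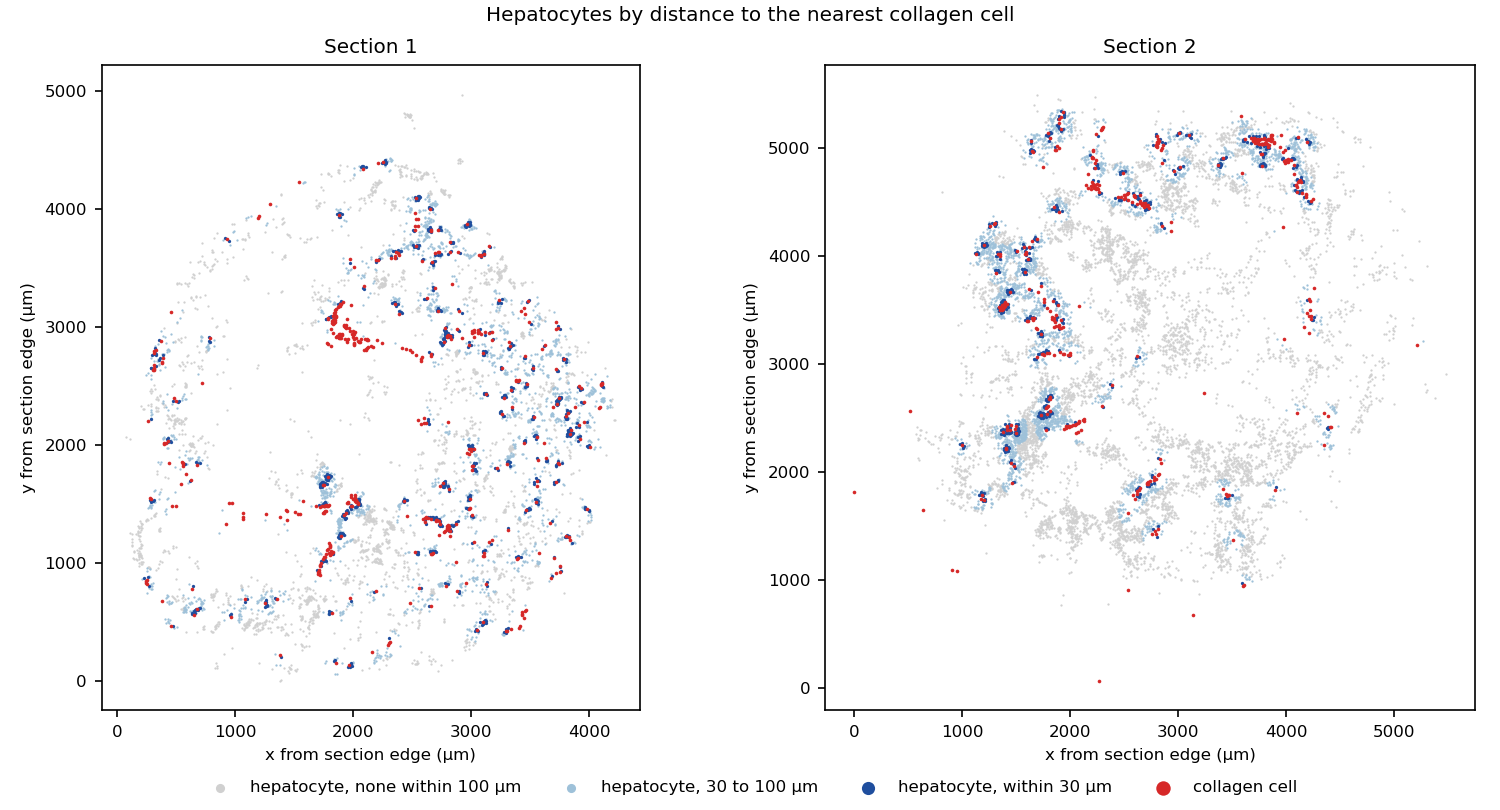
Each point is a cell at its position in µm from the edge of the section, with section 1 on the left and section 2 on the right. Collagen cells (red) lie in clusters and short lines, and the 684 and 506 near hepatocytes (dark blue) follow them, while the far hepatocytes (grey) cover areas with few collagen cells.

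Near and far cells differed in more than their neighbours. The near sums held 39141 and 13272 counts and the far sums 115548 and 106623. The median was 44.5 counts per near cell and 41 per far cell in section 1, and 23 and 17 in section 2. Near cells were smaller, with a median volume of 1058 against 1181 cubic µm in section 1 and 1209 against 1341 in section 2. Counts per 1000 cubic µm were 47.2 near and 42.0 far, and then 20.5 and 13.8. The median number of kept cells within 50 µm was 17 near and 10 far in section 1, and 25 and 16 in section 2. For all segmented cells it was 21 and 17, and then 46 and 51. Blank barcodes, which match no gene, took 0.539% of near and 0.554% of far counts in section 1, and 0.240% and 0.220% in section 2. The 7 hepatocyte rule genes together took 24.5% of near and 26.6% of far counts in section 1, and 33.3% and 39.7% in section 2. A blood-lineage cell was a kept cell with 3 or more counts of macrophage, erythroid, monocyte or neutrophil markers. It also had to hold fewer than 3 collagen counts and under 5 counts of the hepatocyte rule genes. Such a cell lay within 30 µm of 19.2% of near and 17.8% of far cells in section 1, and of 10.7% and 5.49% in section 2. An endothelial-marker cell had at least 2 endothelial marker counts and under 5 counts of the hepatocyte rule genes. It lay within 30 µm of 7.46% of near and 5.30% of far cells in section 1, and of 11.1% and 5.25% in section 2. Levels given below for this class are of its kept cells that were no collagen cells.

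Of 362 genes tested, 2 rose near collagen cells, Oit3 and Thbs1, and none fell. Oit3 encodes a secreted protein best known in liver from sinusoidal endothelial cells, and Thbs1 encodes thrombospondin 1, a matrix glycoprotein stored in platelets. The count of 2 is 0.552% of the genes tested with edgeR's quasi-likelihood test on summed counts, with section as a block and a Benjamini-Hochberg adjusted p under 0.05. At an unadjusted p under 0.05, 34 genes were higher (9.39%) and 14 lower (3.87%). DESeq2 on the same sums called Thbs1 alone among higher genes, and it called 0 lower genes, with 2 lower at an unadjusted p under 0.05. The number called in edgeR ranged from 0 to 13 higher and 0 to 3 lower over the alternatives in the closing section, so the count itself is not stable. The median log2 change of all tested genes was 0.03.

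**Figure D2:**
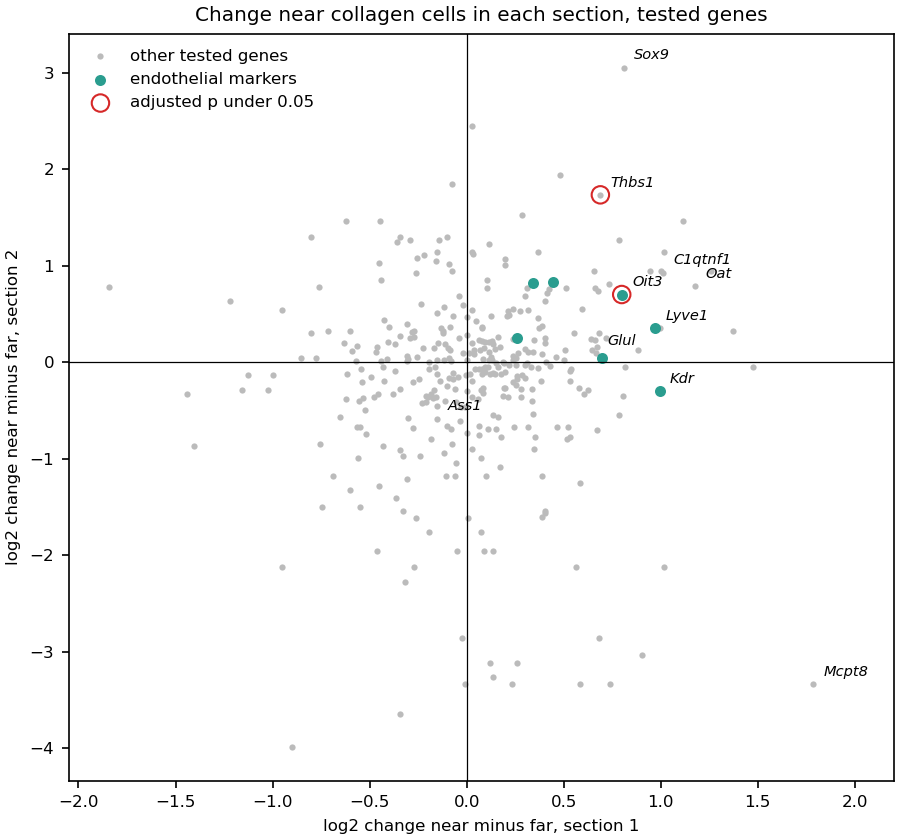
Each point is 1 of the 362 tested genes, placed by its log2 change near minus far in section 1 (horizontal) and section 2 (vertical). The called genes Oit3 and Thbs1 (circled) and most endothelial markers (green) lie in the upper right, where both sections are higher near collagen cells, while Mcpt8 is high in section 1 and low in section 2.

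Oit3 was higher near than far in each section. Its level in section 1 was 43.4 counts per 10000 near (95% exact Poisson interval 37.2 to 50.5), 31.7 in the middle and 25.8 far (22.9 to 28.9). In section 2 it was 18.8 near (12.2 to 27.8), 14.4 in the middle and 9.66 far (7.89 to 11.7). Near and far intervals did not overlap in either section, and the middle cells lay between them. These intervals cover counting error only. The edgeR log2 change was 0.79 (SE 0.15, adjusted p = 0.0389). The sections taken singly gave 0.80 and 0.70. The RNA was spread over many cells: 13.6% of near and 7.76% of far cells in section 1 held at least 1 Oit3 count, and 3.75% and 1.88% in section 2. Counting each cell at most once per gene left a log2 change of 0.69 (adjusted p = 0.0361). The change was positive under each of 25 alternatives, between 0.55 and 1.17, and passed the threshold in 12 of them.

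The level of Oit3 was lowest at the greatest distances, but did not fall at each step. In section 1 it was 43.7 within 15 µm, 43.3 from 15 to 30 µm, 32.7 from 30 to 50 µm, 33.6 from 50 to 75 µm, 28.9 from 75 to 100 µm, 28.5 from 100 to 150 µm and 23.8 beyond. In section 2 the same steps gave 16.8, 19.4, 14.2, 13.7, 15.1, 11.6 and 8.83. Just inside and just outside the 30 µm limit, at 25 to 30 and 30 to 35 µm, the level was 37.9 and 46.5 in section 1 and 17.7 and 26.4 in section 2. In the 5 µm just inside and just outside the 100 µm limit it was 44.5 and 29.8 in section 1 and 18.2 and 16.8 in section 2. Hepatocytes with several collagen cells within 30 µm did not have the highest level. In section 1 those with more than 1 such neighbour had 25.1 (15.8 to 38.0) and those with 1 had 48.7 (41.2 to 57.2), and in section 2 the values were 15.4 (4.99 to 35.9) and 19.96 (12.2 to 30.8).

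**Figure D3:**
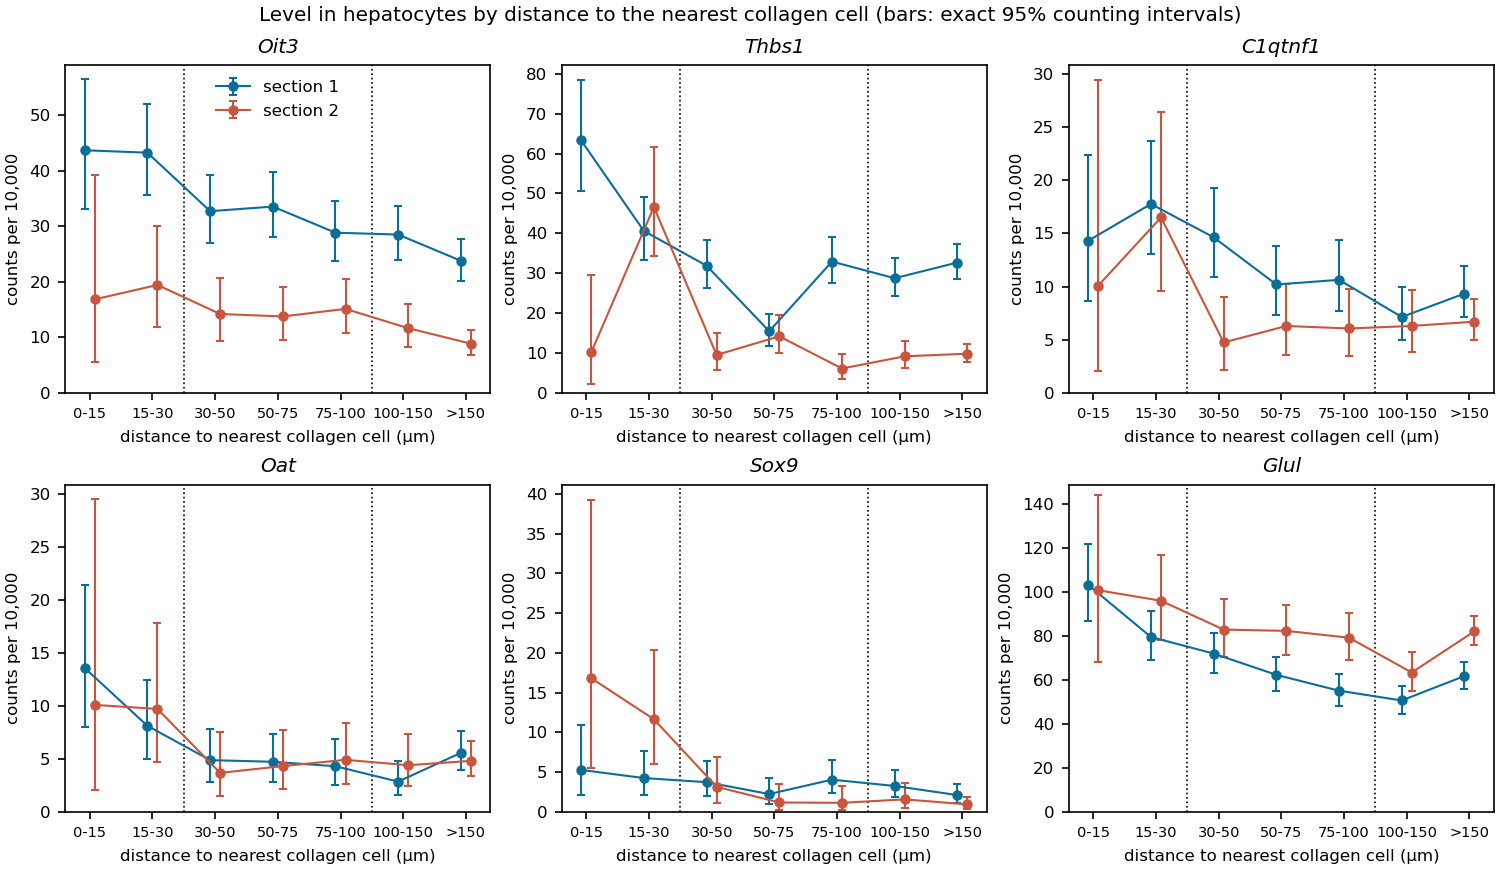
Level in hepatocytes, in counts per 10000 gene counts, by distance in µm to the nearest collagen cell, for 6 genes in section 1 (blue) and section 2 (red), with exact 95% Poisson intervals. Dotted lines mark 30 and 100 µm. Oit3 is lowest beyond 150 µm, Oat and Sox9 are highest within 30 µm, and Thbs1 peaks within 15 µm in section 1 but from 15 to 30 µm in section 2.

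Of 7 endothelial markers tested, 6 had a log2 change above 0 in both sections after TMM scaling, as did 28.5% of all tested genes. The test called 1 of them, Oit3 itself (0.552% of all genes were called higher), and none was lower in both sections (24.6% of all genes). Their median log2 change was 0.58 against 0.03 over all 362 genes. Lyve1, a hyaluronan receptor, had 12.5 and 6.49 counts per 10000 near and far in section 1 and 3.77 and 2.44 in section 2, with a log2 change of 0.88 (SE 0.26, adjusted p = 0.161). Cdh5, the endothelial cadherin, had 23.0 and 14.6 in section 1 and 8.29 and 6.75 in section 2. Kdr, a receptor for vascular growth factor, was the exception, with 21.2 and 10.9 in section 1 but 3.77 and 3.94 in section 2. Near levels of section 2 rest on 5 Lyve1, 11 Cdh5 and 5 Kdr counts. The near and far intervals of each of these genes overlapped there, and Cdh5 was at 8.59 in the middle cells. Section 2 taken gene by gene thus did not show a rise of these markers. Without Oit3 the summed level of the other 7 endothelial markers in the panel was 85.1 near, 67.9 in the middle and 53.8 far in section 1, and 30.1, 26.5 and 19.98 in section 2. No endothelial marker was at 0 in near or far cells.

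Segmented cells that themselves carried endothelial markers had far more of this RNA. Oit3 reached 285 and 378 counts per 10000 in them, a level that Oit3 itself helped to choose, against 34.5 and 15.2 in collagen cells. When hepatocytes with such a cell within 30 µm were left out, the log2 change of Oit3 was 0.79 (adjusted p = 0.00454). That filter used 153 and 176 endothelial-marker cells of any total count. It left out 7.46% and 11.1% of near cells, so endothelial cells not found by their markers remained as neighbours. In the transcripts within 4 µm of the cell centre it was 0.71 (adjusted p = 0.134). In section 1, 64.1% of 170 Oit3 transcripts in near cells lay on the side of the centre that faced the nearest collagen cell (exact binomial interval 56.4 to 71.3), against 48.7% of 298 in far cells (42.9 to 54.5). For Hp, a hepatocyte transcript, the share in near cells was 51.8% of 3589 (50.2 to 53.4), and for F2, another one, it was 53.3% of 2560 (51.4 to 55.3), against 49.7% in far cells. The lean was not particular to Oit3. Col1a1 had 67.5% of 83 (56.3 to 77.35), Thbs1 64.55% of 189 (57.3 to 71.4) and C1qtnf1 63.1% of 65 (50.2 to 74.7). Oat had 56.4% of 39, Fn1 51.3% of 4034, Glul 50.4% of 343, Cyp2f2 45.45% of 110 and Sox9 44.4% of 18. These intervals take transcripts as independent, but 39 of the 170 Oit3 counts lay in 5 cells. In section 2 the Oit3 share was 36.0% of 25 transcripts (17.97 to 57.5), an interval that reaches to both sides of an even split. Intervals there did so too for Col1a1 at 58.1% of 43, Thbs1 at 43.1% of 51 and C1qtnf1 at 60.0% of 20. Whether the Oit3 RNA in these outlines came from hepatocytes was not tested.

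Thbs1 was higher near collagen cells but rested on few cells. Its level was 48.3 near, 26.4 in the middle and 31.0 far in section 1, and 38.4, 9.86 and 9.57 in section 2. Near cells as a whole stood above the others in each section, and middle and far cells did not differ in a common direction. In collagen cells the Thbs1 level was 2.7 times the far level in section 1 and 5.69 times in section 2. In endothelial-marker cells it was 25.1 times the far level in section 1 but 0.681 times in section 2. These were 126 and 97 cells, and no interval was computed for the ratios. Near cells with more than 1 collagen cell within 30 µm had 17.1 (9.59 to 28.3) in section 1, under the far level, and 18.5 (6.77 to 40.2) in section 2, against 57.3 and 44.9 in those with 1. The edgeR log2 change was 0.996 (SE 0.198, adjusted p = 0.0389), and the sections taken singly gave 0.69 and 1.74. Of 189 Thbs1 counts in near cells of section 1, 36 lay in 1 cell and 99 in 5 cells; of 51 in section 2, 22 lay in 1 cell and 35 in 5. Counting each cell at most once left a log2 change of 0.39 (adjusted p = 0.411), so the call ended. With collagen cells of at least 5 collagen counts it turned to -0.54 (adjusted p = 0.705). At the 30 µm limit the sections went opposite ways. In section 1 the Thbs1 level was 40.25 (27.9 to 56.25) from 25 to 30 µm and 63.6 (47.5 to 83.5) from 30 to 35 µm. In section 2 no Thbs1 count was seen from 30 to 35 µm, where the upper limit is 8.85, against 71.0 from 25 to 30 µm. Of the 28 counts behind the 71.0, 22 lay in 1 cell, and without it the level was 15.6 (5.73 to 33.97). Over all near cells, leaving out the cell highest in Thbs1 gave 39.2 in section 1 and 22.0 in section 2, a choice made after its values were seen.

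Some of the near cells richest in Thbs1 also carried the platelet gene Gp1bb. Gp1bb encodes part of the platelet receptor for von Willebrand factor. In endothelial-marker cells its level was 10.8 times the far level in section 1 and 0 in section 2. The value of section 2 comes from 97 cells and has no interval, so the sections were not shown to differ in this. The marker Vwf was on both the endothelial and the megakaryocyte list. The near cell with 22 Thbs1 counts in section 2 held 12 Gp1bb counts, and that with 36 in section 1 held 3. The next in section 1, with 25, held 1 Gp1bb count, and the other near cells among the 5 highest of each section held no Gp1bb count. No far cell among the 5 highest of each section held a Gp1bb count. Gp1bb over all near cells was 4.09 against 4.15 far in section 1, but 15.1 against 2.16 in section 2. The 15.1 comes from 20 counts, of which 12 lay in the 1 cell named above, and without that cell the near level of section 2 was 6.07 (2.62 to 11.97). Without Thbs1 the summed megakaryocyte markers were 12.5 near and 10.5 far in section 1, and 21.1 and 4.03 in section 2, where the near value rests on 28 counts, the same 12 among them. Of 3 such markers tested, Thbs1 was called (0.552% of all genes) and all had a log2 change above 0 in both sections after TMM scaling (28.5% of all genes). Their median is the change of Thbs1 itself, and Gp1bb differed by 1.12 (SE 0.47, adjusted p = 0.332). Their part in the Thbs1 result was not tested beyond the count of each cell once.

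**Figure D4:**
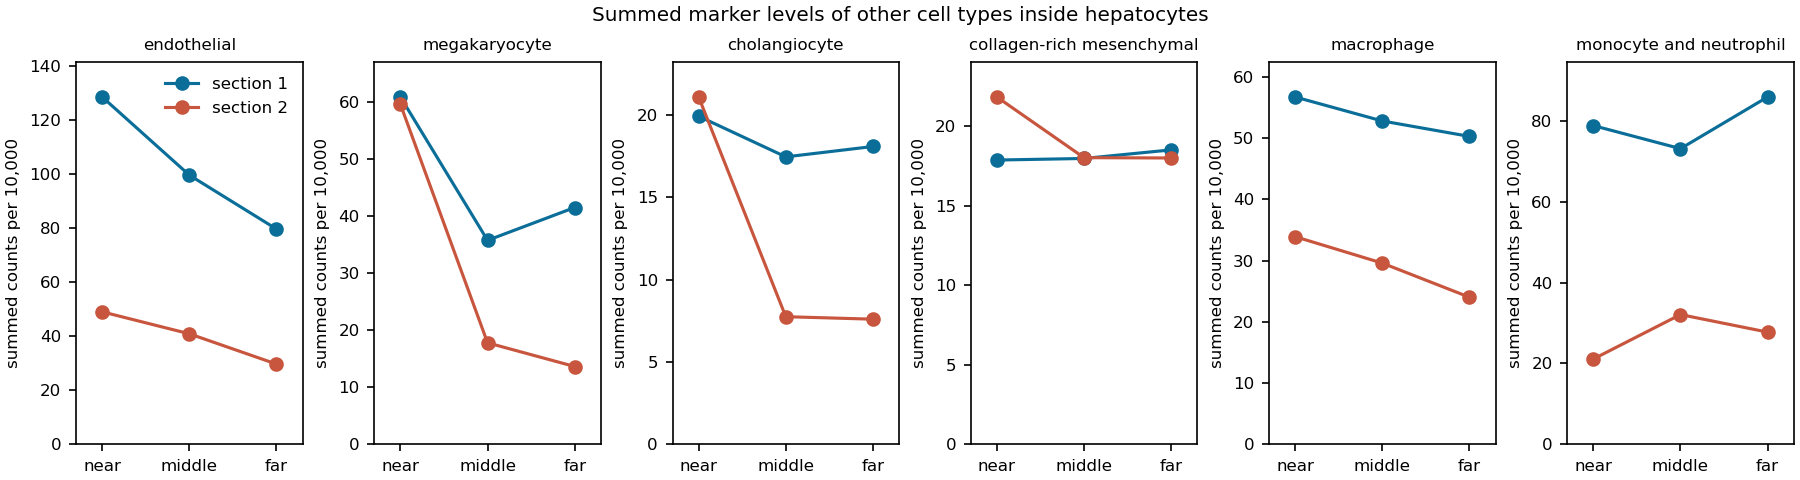
Summed level of marker lists of other cell types inside near, middle and far hepatocytes, in counts per 10000 gene counts, for section 1 (blue) and section 2 (red); Col1a1 and Col3a1 are left out of the mesenchymal list. Endothelial markers step down from near to far in both sections, from 128 to 79.6 and from 49.0 to 29.6, and the mesenchymal list is nearly flat in section 1.

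The genes next in order missed the threshold at an adjusted p of 0.0633. They were chosen for naming after their values were seen. C1qtnf1 encodes a secreted protein with a domain like that of complement C1q, and had 16.6 near and 8.40 far in section 1 and 15.1 and 6.57 in section 2 (log2 change 0.96, SE 0.23). Near intervals, 12.8 to 21.2 and 9.21 to 23.3, lay above the far ones, 6.81 to 10.2 and 5.12 to 8.30. Oat encodes ornithine aminotransferase, a pericentral enzyme upstream of glutamine synthesis. It had 9.96 near and 4.41 far in section 1, and 9.79 and 4.69 in section 2 (log2 change 1.07, SE 0.26). In each section the near level of Oat was over 2 times the far one. The others were Klc1, a kinesin light chain (0.73, SE 0.18), Myadm, a membrane protein (0.72, SE 0.17), and Ushbp1 (0.60, SE 0.15), which were higher near in both sections. C1qtnf1 passed the threshold in 12 of 25 alternatives, as often as Oit3, and Oat and Klc1 in 7 each.

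Most genes leaning towards near cells were also higher in collagen cells. Of the 34 higher at an unadjusted p under 0.05, 29 had a higher level in collagen cells than in far hepatocytes in both sections, and 23 did in endothelial-marker cells. Of the 14 lower ones, 0 and 2 did. Over all 362 genes the numbers were 155 and 122. These sets were read from the same sums, so the counts are a description.

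Collagen and stellate genes outside the rule did not share a direction. Of 4 matrix and stellate genes tested, 0 were called, with a median of 0.13, and 0 were higher and 2 lower in both sections after TMM scaling (28.5% and 24.6% of all genes). Tgfbi, a matrix protein induced by TGF-beta, had 16.1 near and 10.7 far in section 1 and 4.52 and 4.69 in section 2. Cald1, a smooth muscle actin-binding protein, had 15.6 near and 16.7 far in section 1 and 18.1 near and 16.9 far in section 2. The summed level of Pdgfra, Acta2 and Cald1 was 17.9 near and 18.5 far in section 1 and 21.9 and 18.01 in section 2. The rule itself capped collagen at 1 count per cell, and 15.6% of near and 6.17% of far cells held that count in section 1, and 9.49% and 2.66% in section 2. Col1a1 stood at 21.2 and 8.91 in section 1 and at 32.4 and 10.7 in section 2, which was not tested. With hepatocytes of 0 collagen counts only, the log2 change of Oit3 was 0.69 (adjusted p = 0.0688), which ended its call, and that of Thbs1 was 1.26 (adjusted p = 0.00328).

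Of 9 tested genes for signals that mesenchymal and endothelial cells send to hepatocytes, 0 passed, with a median log2 change of 0.29. Hgf, the hepatocyte growth factor of stellate cells, had 4.85 near and 3.03 far in section 1 and 3.77 and 2.53 in section 2 (log2 change 0.59, SE 0.36). Wnt2, a Wnt ligand of sinusoidal endothelium, had 4.60 and 2.34 in section 1 and 4.52 and 1.88 in section 2 (0.96, SE 0.42, adjusted p = 0.347). Cxcl12, a chemokine of stellate cells, had 49.6 and 44.2 and then 21.1 and 18.1.

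Among receptors and targets of such signals 0 of 16 passed, with a median of 0.10. Met, the receptor of Hgf, differed by 0.11 (SE 0.51). Notch1, a receptor with roles in endothelium and bile duct formation, had 39.3 near and 30.6 far in section 1 and 18.8 and 9.57 in section 2 (0.47, SE 0.15, adjusted p = 0.187). Sox9, a transcription factor of bile duct cells and of periportal hepatocytes next to them, had the largest difference in section 2, 12.8 near against 1.13 far, with 4.60 against 2.60 in section 1. These values rest on 17 near and 12 far counts for section 2, and for section 1 on 18 near and 30 far counts. The log2 change was 1.81 (SE 0.51, adjusted p = 0.146), and Sox9 passed in 11 of the 23 alternatives that tested it. Without Sox9, bile duct cell markers summed to 15.3 near and 15.5 far in section 1 and 8.29 and 6.47 in section 2, and Krt7, a keratin of duct cells, was at 0 in near cells of both sections.

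Blank barcodes set how firmly such low genes can be read. Over all hepatocytes the highest of 50 blanks had 139 counts in section 1 and 146 in section 2, and the median blank 16.5 and 4. Oit3, with 831 and 230 counts, and Thbs1, with 850 and 223, lay above the highest blank in both. Sox9 lay below it in both, with 86 and 41 counts. Oat, with 143 and 94, and C1qtnf1, with 296 and 131, lay above it in section 1 only. The same held for the endothelial markers Kdr, with 390 and 77, Lyve1 and Cdh5.

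Lobular position differed between near and far cells, and not in the same direction in both sections. A position score sums 3 pericentral landmarks (Glul, Cyp2e1 and Gulo) and 3 periportal ones (Pck1, Ass1 and Hsd17b13) over the other hepatocytes within 50 µm of a cell, and takes the log2 of the first sum over the second, with 1 added to each. Its median was 0.47 near and 0.05 far in section 1, and -0.30 near and 0 far in section 2. Cells with fewer than 5 other hepatocytes within 50 µm have no score and enter neither these medians nor the terciles below: 79.97% of near and 59.3% of far cells had one in section 1, and 90.9% and 75.9% in section 2. Near cells with a score leaned pericentral in section 1 and periportal in section 2.

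Of the landmarks, none passed the threshold. Glul encodes glutamine synthetase, which marks the ring of hepatocytes around the central vein. Its level was 87.6 near (78.6 to 97.4), 62.8 in the middle and 57.1 far (52.8 to 61.7) in section 1, and 97.2 (81.2 to 116), 81.4 and 76.6 (71.5 to 82.1) in section 2. Intervals of near and far cells were apart in section 1 and overlapped in section 2. The log2 change was 0.42 (SE 0.14, adjusted p = 0.187), and it passed in 4 of 24 alternatives. Cyp2e1, a pericentral cytochrome, differed by 0.10 (SE 0.14), and Gulo, which catalyses the last step of vitamin C synthesis, by 0.10 (SE 0.13). Of the periportal landmarks, the urea cycle gene Ass1 differed by -0.34 (SE 0.15, adjusted p = 0.347), the gluconeogenic Pck1 by -0.13 (SE 0.13) and the lipid droplet gene Hsd17b13 by 0.04 (SE 0.18). Ass1 was lower near in both sections, 28.1 against 32.4 and 43.0 against 54.2. Cyp2f2, a periportal cytochrome outside the score, was level in section 1, 28.1 against 28.5, and higher near in section 2, 27.9 against 10.7 (0.39, SE 0.23, adjusted p = 0.533).

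Over the longer lists, 0 of 15 pericentral and 0 of 12 periportal genes passed, with medians of 0.10 and -0.05. The pericentral genes at the top were Oat and Lgr5, a receptor of R-spondins. Lgr5 had 18 and 21 counts near and far in section 1, and 2 and 6 in section 2. At the other end Por, the electron donor of cytochromes P450, differed by -0.28 (SE 0.13).

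When cells were split by the score into 3 equal terciles, Glul in the most pericentral one had 138 near (119 to 159) against 67.6 far (56.8 to 79.8) in section 1, and 192 (147 to 245) against 112 (99.8 to 125) in section 2. In the most periportal tercile it had 47.5 against 46.6 and 43.6 against 55.6. The score reads Glul in neighbouring cells, so these values are a description. Oit3 in the pericentral tercile had 63.7 near against 34.3 far in section 1 and 36.5 against 12.96 in section 2, a log2 change of 0.92 (SE 0.28, adjusted p = 0.0978). In the periportal tercile it had 24.8 against 22.7 and 12.4 against 7.58, a log2 change of 0.18 (SE 0.35). The difference between these changes was 0.74 (SE 0.44, adjusted p = 0.784), so it was not shown to depend on position. Sox9 had its highest near level in the periportal tercile, 8.26 against 3.91 far in section 1 and 22.8 against 1.44 in section 2 (2.11, SE 0.58, adjusted p = 0.173). These rest on 8 near and 10 far counts in section 1, where the intervals overlapped (3.57 to 16.3 and 1.88 to 7.20), and on 11 and 4 in section 2. In this tercile cells of the middle distance class had 7.99 in section 1, much like near cells, and 2.92 in section 2.

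**Figure D5:**
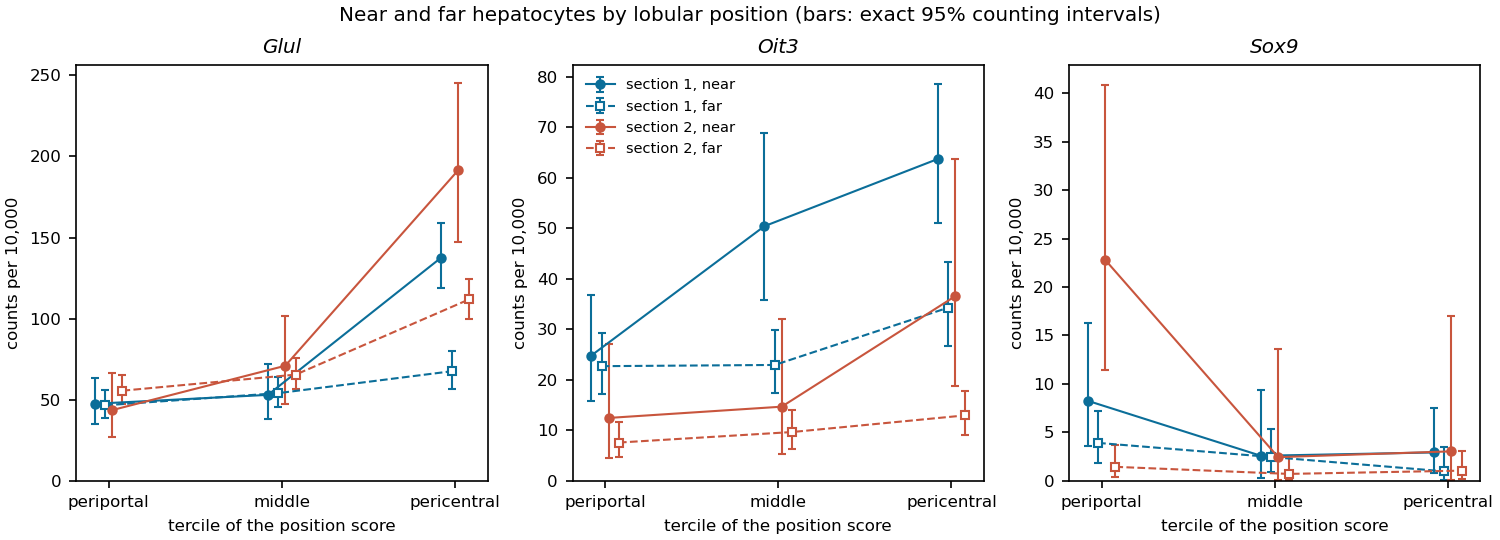
Levels of Glul, Oit3 and Sox9, in counts per 10000 gene counts, in near (filled, solid line) and far (open, dashed line) hepatocytes of each tercile of the position score, with exact 95% Poisson intervals; section 1 is blue and section 2 red. Near and far Glul part in the pericentral tercile, 138 against 67.6 and 192 against 112, and near Sox9 is highest in the periportal tercile.

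Across 319 genes tested in these terciles, 1 rose and 1 fell in the pericentral tercile, 0.313% each. Thbs1 rose by 1.92 (SE 0.45, adjusted p = 0.0251), from 17.6 far to 67.4 near in section 1 and from 6.31 to 33.5 in section 2. In the periportal tercile the sections went opposite ways, with 11.4 near against 32.9 far in section 1 and 62.3 against 12.99 in section 2. The log2 change there was 0.30 (SE 0.48, adjusted p = 0.873). Of 51 near Thbs1 counts in section 2, 30 lay in the periportal, 7 in the middle and 11 in the pericentral tercile. The 1 near cell with 22 counts was therefore periportal, so the 62.3 and the contrast between sections rest largely on that cell. In the middle tercile Thbs1 was 50.4 near against 55.3 far in section 1 and 17.1 against 6.44 in section 2. The difference between the pericentral and periportal changes was 1.62 (SE 0.65, adjusted p = 0.784), so it was not shown to depend on position. Ighm, the heavy chain of immunoglobulin M, fell by 1.5 (SE 0.38, adjusted p = 0.0327). In the periportal tercile edgeR called 0, although 28 (8.78%) had an unadjusted p under 0.05, against 31 (9.72%) in the pericentral tercile. For the difference between terciles it called 0, and 17 (5.33%) had such a p. DESeq2 was not run on the terciles.

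Of 16 secreted and metabolic hepatocyte genes tested, 0 passed, with a median of -0.12. Hp, haptoglobin, had 917 near and 951 far in section 1 and 1666 and 1721 in section 2 (log2 change -0.15, SE 0.13, adjusted p = 0.760). Fn1, fibronectin, had 1031 and 973 in section 1 and 396 and 292 in section 2 (0.16, SE 0.12, adjusted p = 0.649). Acsl1, which activates fatty acids, had 79.5 against 95.3 and 70.1 against 78.3 (-0.29, SE 0.12, adjusted p = 0.347). Of 5 cell cycle genes and 6 acute phase and stress genes, 0 passed.

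The rule genes were not tested. Among them Igfbp2, a binding protein of insulin-like growth factors, had 424 near and 507 far in section 1 and 1289 and 1893 in section 2. F2, prothrombin, had 654 and 702 and then 651 and 672. Fgb, a fibrinogen chain, had 560 and 596 and then 396 and 416. The other hepatocyte rule genes changed direction between the sections. Igfbp4 had 448 and 438 and then 652.5 and 682.5, and Serpina1a 2.56 and 2.25 and then 21.1 and 26.1. Apoh had 125 and 134 and then 184 and 154, and Fga 232 and 282 and then 136 and 127.

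Markers of blood-forming and immune cells were mixed. Of 5 macrophage, 4 erythroid, 8 monocyte and neutrophil and 10 B and T lineage markers tested, 0 passed, with medians of 0.18, 0.15, -0.18 and -0.22. Mcpt8, a protease of basophils, was high near in section 1, 12.8 against 3.64, and at 0 near in section 2, where 0 of 13272 counts allows up to 2.78 by the exact interval. It was named after its values were seen.

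A comparison with hepatocytes beside blood-lineage cells addressed whether differences went with any neighbour that is no hepatocyte. The 684 and 506 near hepatocytes were set against 370 and 295 with a blood-lineage cell within 30 µm and no collagen cell within 100 µm. No gene of 362 passed in edgeR, with 28 higher (7.73%) and 20 lower (5.52%) at an unadjusted p under 0.05, and DESeq2 called 0, with 6 and 10. Oit3 differed by 0.36 (SE 0.20, adjusted p = 0.460), with 0.37 and 0.28 in the sections, and Thbs1 by 0.63 (SE 0.24, adjusted p = 0.287). Sox9 differed by 2.78 (SE 0.86, adjusted p = 0.126) and Glul by 0.42 (SE 0.17, adjusted p = 0.287). At the lower end stood Cd24a and the carbonic anhydrase gene Car2, both high in erythroid cells, at -0.77 and -0.83 (adjusted p = 0.0648 each). Both comparisons share the near cells, so they are no independent checks of each other.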

How the data were processed

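The authors deposited raw counts per segmented cell, cell positions and volumes, an image signal per stain, which was not compared here, and transcript positions. Lengths carry no unit in the file headers, and µm was assumed. Tissue was cut into 10-µm cryosections, per the labels' protocols; which software decoded and segmented is not given in the sources used here. Recounting the deposited transcripts gave equal counts for all 26037 and 85929 cells.

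Counts were summed per section and distance class (6 sums, 2 residual degrees of freedom), with totals over 500 genes, and tested with edgeR 4.0.16 (TMM, section as block, sums of at least 50 counts, R 4.3.3). The 9 rule genes were left out of tests, and 129 genes fell under the minimum. TMM shifted near minus far by 0.05 (log2) in section 1 and -0.25 in section 2, so log2 changes can differ in sign from raw levels. Log2 changes of single sections use a prior count of 2, and SEs derive from the F statistic. DESeq2 1.42.0 was an alternative. Levels are raw shares. Overlapping molecules and doublets were not treated; cells of a section share their source and are not replicates. The edgeR step was tested on simulated data.

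Members and lists were chosen with earlier results of these data known. Named genes were the called ones with the same sign in both sections, called members of the matrix, pericentral and periportal lists, the 6 landmarks of the position score, Cyp2f2, Hp and Fn1; others were named after their values were seen.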

Additional observations from a re-analysis of the deposited data

How the results depend on the processing

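The numbers of genes called moved with most choices. Against 2 higher near collagen cells than far in the main test, edgeR called 8 with near and far sums alone, 0 with near taken as 20 or 50 µm, 7 with far beyond 150 µm and 0 beyond 75 µm. Collagen cells of at least 5 counts gave 0, hepatocytes with 0 collagen counts 1, those with at least 8 rule gene counts 0 and cells of at least 20 counts 0. Terciles of the position score as a block gave 8, near and far cells of the same 500 µm tile 6, cells with at least 5 kept neighbours 8 and cells with no blood-lineage neighbour 6. No TMM gave 11, DESeq2 1, no filter above 1 count 0, a minimum of 200 counts 0, transcripts within 4 µm of the centre 0 and cell volume as offset 7, where the median of all genes was 0.40. Added after seeing the data, leaving out cells with an endothelial-marker neighbour gave 13, collagen cells of any total 9 and each cell counted once 5. The fit with no replicate block gave 0, with 1 gene at an unadjusted p under 0.05. Collagen cells of at least 2 counts and totals without rule genes each gave 3. Lower genes, 0 in the main test, numbered 1 with collagen cells of at least 2 counts (Satb1), 3 with position terciles (Hp, Sord, Ighm), 2 within tiles (Acsl1, Ly6c2) and 1 with at least 5 kept neighbours (Ighm), and 0 in the other alternatives. Why the numbers moved was not tested.

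Against hepatocytes near blood-lineage cells, 0 and 0 in the main test, blood-lineage cells of at least 5 counts gave 3 higher and 1 lower, no filter above 1 count 2 and 1, and a minimum of 200 counts 0 and 3; no TMM, DESeq2 and no replicate block gave 0 and 0.

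Thbs1 turned to -0.54 with collagen cells of at least 5 counts. Genes near 0 in the main test changed sign without passing. Cyp2e1 was -0.0706 with near at 50 µm, -0.0554 in cells of at least 20 counts, -0.0199 with each cell counted once and -0.0361 without rule genes in the totals. Gulo was -0.0511 within 4 µm of the centre and -0.0379 without rule genes. Fn1 was -0.0195 within tiles and -0.0791 with each cell counted once. With cell volume as offset Pck1 was 0.36, Ass1 0.10 and Hp 0.32. Hsd17b13 was -0.0571 with near at 20 µm, -0.0113 with far beyond 75 µm, -0.0572 with collagen cells of at least 5 counts, -0.0220 with at least 8 rule gene counts, -0.11 in cells of at least 20 counts, -0.27 within tiles, -0.00694 with at least 5 kept neighbours, -0.0523 without blood-lineage and -0.0890 without endothelial-marker neighbours, -0.00472 with each cell counted once, -0.0583 within 4 µm, -0.0275 in DESeq2, -0.10 with no replicate block and -0.11 without rule genes.

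Leaving out a section leaves 1 sum per class and no test, so counts have no such value. The single-section changes ranged from 0.70 to 0.80 for Oit3 and from 0.69 to 1.74 for Thbs1. Depth limits section 2, where near cells held 13272 counts in all.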
